A study of Mus musculus with 6 samples.

Results

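The genes of the RANKL axis and the osteoclast effector genes that it drives were described in femoral bone of mice with and without a running wheel. The 10 genes were picked by symbol (Tnfsf11, Tnfrsf11b, Tnfrsf11a, Nfatc1, Dcstamp, Ocstamp, Acp5, Ctsk, Calcr and Oscar), and all 10 were found among the 55484 genes of the tables and had been tested by the authors. The 6 libraries of polyadenylated RNA came from male wild-type C57BL/6 mice, 3 with free access to a wheel (ND/WCR) and 3 in cages with no wheel (ND/SED). Both groups ate normal chow and were housed singly from 6 weeks of age for 6 weeks, so all mice were 12 weeks old when the femurs were taken. The comparison asks what voluntary running leaves in the transcripts of the femur. Each gene has 1 pooled value per group, an FPKM (fragments per transcript kilobase scaled to the fragments sequenced, a level per length), with the bounds of the authors' interval, whose level is not stated. No value of a single mouse was available, so no SD can be given, and a call here means that the authors' deposited table gives a q under 0.05. Differences are given as log2 folds of wheel running over sedentary, computed on the log2(FPKM + 0.1) scale.

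RANKL, the product of Tnfsf11, is a membrane-bound and shed cytokine made by osteocytes, osteoblast-lineage cells, growth plate chondrocytes and lymphocytes. It binds the receptor RANK (Tnfrsf11a) on precursors of the monocyte lineage, while osteoprotegerin (Tnfrsf11b), a secreted decoy receptor, captures the ligand first. RANK signals through TRAF6, NF-kB and AP-1 to induce Nfatc1, the transcription factor that switches on fusion, acid secretion and collagen breakdown as precursors become multinucleated osteoclasts. Bone loading is known to act on RANKL and osteoprotegerin through osteocytes.

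NFATc1 binds the core GGAAA, often beside AP-1 sites (TGANTCA), in osteoclast genes, so the 250 bases before the transcription start are shown for the ligand and for 3 effector genes, from the RefSeq table of build GRCm38.p6. Windows were taken for 6 of the 10 genes, with 9 start sites. Nfatc1 is not among the 6, and whether that table lists a start for it is not reported here. The counts of windows below therefore do not cover all 10 genes. The windows are written 5′ to 3′ in gene orientation, and the capitals mark GGAAA on either strand (TTTCC when it lies on the other strand). The Acp5 window is that of the outermost of its 3 listed starts, and none of the 4 windows overlaps an annotated exon.
Tnfsf11, chr14:78308044-78308293, minus strand: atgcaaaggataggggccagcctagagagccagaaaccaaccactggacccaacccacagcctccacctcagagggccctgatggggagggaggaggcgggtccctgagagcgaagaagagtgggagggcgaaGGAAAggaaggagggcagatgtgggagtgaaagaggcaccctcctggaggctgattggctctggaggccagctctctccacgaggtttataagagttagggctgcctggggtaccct
Acp5, chr9:22135747-22135996, minus strand: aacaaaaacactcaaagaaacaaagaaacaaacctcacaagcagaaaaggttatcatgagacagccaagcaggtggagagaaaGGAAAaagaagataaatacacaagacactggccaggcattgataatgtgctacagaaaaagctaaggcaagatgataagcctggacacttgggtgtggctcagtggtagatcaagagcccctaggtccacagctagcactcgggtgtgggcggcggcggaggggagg
Ctsk, chr3:95498960-95499209, plus strand: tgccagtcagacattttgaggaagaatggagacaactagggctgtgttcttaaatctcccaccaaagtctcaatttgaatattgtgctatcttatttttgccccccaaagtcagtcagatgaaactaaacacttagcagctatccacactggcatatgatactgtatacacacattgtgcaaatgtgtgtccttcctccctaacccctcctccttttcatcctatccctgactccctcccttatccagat
Oscar, chr7:3616158-3616407, minus strand: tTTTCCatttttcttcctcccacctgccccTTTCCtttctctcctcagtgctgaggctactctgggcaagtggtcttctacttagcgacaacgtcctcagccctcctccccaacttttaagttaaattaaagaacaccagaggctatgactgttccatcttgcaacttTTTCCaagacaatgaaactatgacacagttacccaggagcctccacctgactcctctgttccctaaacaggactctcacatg
The Oscar window held 3 matches, the Tnfsf11 and Acp5 windows shown 1 each and the Ctsk window 0. At the other listed Acp5 starts, not shown, the window chr9:22130599-22130848 held 2 matches and overlaps an Acp5 exon. The window chr9:22131866-22132115 held 1. Of the 9 windows of these genes 6 held GGAAA, beside 55.6% of all 32817 promoter windows of the same length, so this short motif is common. The 32817 windows were not limited by chromosome. TGANTCA was in 0 of the 9 windows, beside 6.75% of all windows. With no TGANTCA found, matches of the 2 motifs did not overlap. A match describes letters in these windows and an absence says only that the letters are not in them.

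None of the 10 transcripts was called changed. Of the 15508 tested genes 0.941% were called, so 0 of 10 is close to the background. The largest difference was that of Tnfrsf11b, higher in running mice by 1.36-fold and short of the threshold, while Tnfsf11 and Ctsk stood at nearly the same level in both groups. In all, 8 of the 10 had a positive log2 fold, with a median of 0.14 and a range of -0.08 to 0.44. Among all tested genes 48.2% had a positive fold and the median was -0.01. By mean FPKM, the median was 0.03 from 1 to under 10, where 7 of the 10 genes lie. It was -0.02 from 10 to under 100 and -0.04 from 100 to under 1000. The intervals of the 2 groups overlapped for all 10, where 0.574% of tested genes had intervals apart. For 9 of the 10 the running value lay inside the sedentary interval and the sedentary value inside the running interval, and Tnfrsf11b was the exception on both counts. In bulk bone, fewer cells of a type and less RNA per cell cannot be told apart.

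**Figure D1:**
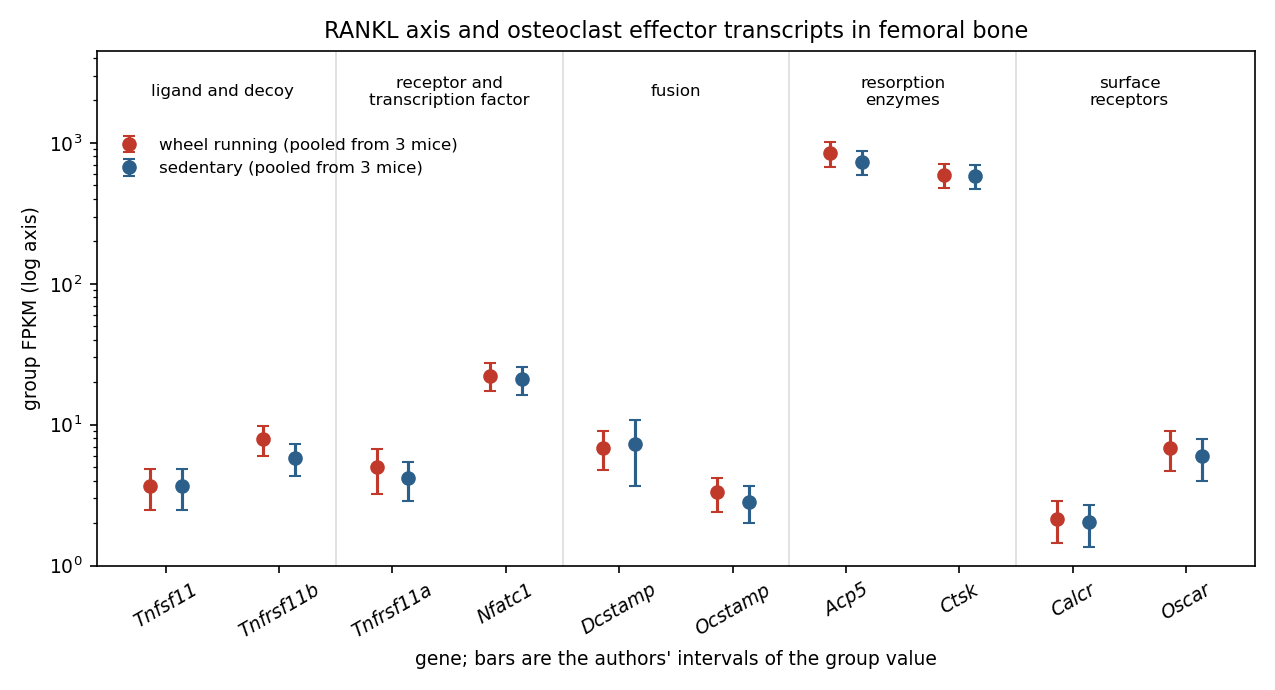
Group FPKM (log axis) of the 10 genes, ordered by role, in wheel running (red) and sedentary (blue) mice; points are the authors' pooled group values and bars their intervals. Acp5 and Ctsk stand at 593 FPKM or more in running mice and 580.3 FPKM or more in sedentary mice, far above the other 8, and the bars of the 2 groups overlap for every gene.

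The ligand was level between the groups and its decoy receptor was not called. Tnfsf11 (ENSMUSG00000022015; chromosome 14, 78277445 to 78308043, minus strand, GRCm38), whose upstream window is printed above, had an FPKM of 3.65 (interval 2.48 to 4.82) in running mice and 3.68 (2.50 to 4.87) in sedentary mice. Its log2 fold of -0.01 turned positive after rescaling both groups to equal totals (0.03) or equal upper quartiles (0.02), so it has no direction. Tnfrsf11b (ENSMUSG00000063727; chromosome 15, 54250619 to 54278484, minus strand) had 7.87 FPKM (6.03 to 9.72) in running mice and 5.78 FPKM (4.32 to 7.24) in sedentary mice, a log2 fold of 0.44. The 2 intervals shared the stretch between 6.03 and 7.24 FPKM. In the authors' deposited table its unadjusted p was 0.002 and its q 0.140. It was the 1 gene of the 10 with an unadjusted p under 0.05 in the authors' deposited table, where 5.65% of tested genes had one. Its deposited test statistic was 1.79, below the 1.96 that marks a p of 0.05 on a normal scale, so the deposited p and statistic differ in strength, and the labels and headers do not explain why. The same held across the table: of the 876 tested genes with an unadjusted p under 0.05, 168 had an absolute statistic of at least 1.96, as did 136 of the 146 called genes. Among 6330 tested genes with a mean FPKM from 1 to under 10, 450 (7.11%) had a log2 fold at least as high as that of Tnfrsf11b, and 29 of those were called.

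The ratio of ligand to decoy receptor, often read as the balance of the axis, was 0.464 in running mice and 0.637 in sedentary mice. The running ratio was 0.727 times the sedentary ratio. Taking each gene at the opposite end of its interval put the ratio between 0.255 and 0.800 in running mice and between 0.345 and 1.13 in sedentary mice. These ranges overlap widely, no test of the ratio could be made, and its difference comes from the Tnfrsf11b value, which was not called.

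Most markers of bone-forming and stromal cells, which make osteoprotegerin, had positive folds in the same libraries, and most of those of osteoblasts and osteocytes were not called. All 9 osteoblast markers had a positive log2 fold (median 0.18, none called), and their summed level was 7132 FPKM in running mice and 6739 FPKM in sedentary mice. Of 10 tested osteocyte markers 9 had a positive fold (median 0.26), with a summed level of 471 FPKM in running mice and 376 FPKM in sedentary mice. An additional osteocyte marker, Pdpn, was listed at 0 in both groups and not tested by the authors. Whether it is not expressed or was not counted cannot be told. Sost and Mepe were called higher, and Fgf23, a phosphate-regulating hormone with the largest fold of the list in size, was called lower, at 0.288 FPKM in running mice and 3.36 FPKM in sedentary mice (log2 fold -3.16). All 8 markers of marrow stroma and the adipocyte lineage had a positive fold (median 0.49, 4 called higher), with sums of 1523 FPKM in running mice and 1244 FPKM in sedentary mice. All 9 skeletal muscle markers had a positive fold too (median 0.28, 3 called higher; sums of 1718 FPKM in running mice and 1404 FPKM in sedentary mice). The part of these shifts in the Tnfrsf11b value was not tested.

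The transcripts of RANK and NFATc1, the receptor and the transcription factor of the precursor cell, both had small positive folds and neither was called. For both, the value of each group lay inside the interval of the other. Tnfrsf11a (ENSMUSG00000026321; chromosome 1, 105780718 to 105847981, plus strand) had 4.996 FPKM (3.25 to 6.75) in running mice and 4.15 FPKM (2.90 to 5.41) in sedentary mice. Its log2 fold of 0.26 was the second in size among the 10, and the authors' deposited table gives an unadjusted p of 0.149. Nfatc1 (ENSMUSG00000033016; chromosome 18, 80606205 to 80713071, minus strand) had 22.3 FPKM (17.3 to 27.3) in running mice and 20.9 FPKM (16.3 to 25.6) in sedentary mice, a log2 fold of 0.09. Nfatc1 was the third most abundant of the 10 in both groups, with its interval apart from those of the genes above and below it.

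The paired fusion genes pointed in opposite directions, and neither was called. Dcstamp (ENSMUSG00000022303; chromosome 15, 39745930 to 39760938, plus strand) and Ocstamp (ENSMUSG00000027670; chromosome 2, 165393760 to 165400405, minus strand) encode multi-pass membrane proteins required for precursors to fuse. Dcstamp had 6.86 FPKM (4.75 to 8.97) in running mice and 7.26 FPKM (3.70 to 10.8) in sedentary mice, a log2 fold of -0.08. Its sedentary interval was the widest of the 10 genes, reaching 49.1% of the value to each side, against 30.8% in running mice. Ocstamp had 3.30 FPKM (2.39 to 4.22) in running mice and 2.84 FPKM (2.02 to 3.66) in sedentary mice, a log2 fold of 0.21.

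The resorption enzymes were by far the most abundant of the 10 genes. Acp5 (ENSMUSG00000001348; chromosome 9, 22126727 to 22135711, minus strand) encodes tartrate-resistant acid phosphatase, the classic osteoclast stain, and stood at 844 FPKM (675 to 1013) in running mice and 735 FPKM (592 to 878) in sedentary mice. Its log2 fold was 0.20, with an unadjusted p of 0.0824 in the authors' deposited table. Ctsk (ENSMUSG00000028111; chromosome 3, 95499256 to 95509362, plus strand) encodes cathepsin K, the protease that cuts bone collagen, and had 593 FPKM (479 to 706) in running mice and 580.3 FPKM (469 to 691) in sedentary mice, a log2 fold of 0.03. Acp5 lay above 99.5% of tested genes in running mice and above 99.4% in sedentary mice, and Ctsk above 99.2% in both. Acp5 shares 137 exonic bases with 6530413G14Rik on the opposite strand, which was listed at 0.116 FPKM in running mice and 0.0573 FPKM in sedentary mice. The labels and headers do not say whether fragments were counted by strand.

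The surface receptors differed little between the groups. Calcr (ENSMUSG00000023964; chromosome 6, 3685680 to 3764714, minus strand) encodes the calcitonin receptor, through which calcitonin halts resorption, and had 2.15 FPKM (1.44 to 2.86) in running mice and 2.03 FPKM (1.35 to 2.71) in sedentary mice. Its log2 fold was 0.08, and it was the least abundant of the 10 in both groups. Oscar (ENSMUSG00000054594; chromosome 7, 3609813 to 3616157, minus strand) encodes an immunoglobulin-like receptor that binds collagen and signals through the Fc receptor gamma chain. It had 6.82 FPKM (4.66 to 8.97) in running mice and 5.95 FPKM (3.97 to 7.94) in sedentary mice, a log2 fold of 0.19.

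The order of the levels was the same at the top and at the bottom in both groups: Acp5, Ctsk and Nfatc1 first, and Tnfrsf11a, Tnfsf11, Ocstamp and Calcr last. Tnfrsf11b ranked above Dcstamp and Oscar in running mice and below both in sedentary mice. Neighbours in this order had overlapping intervals except at the gaps between Ctsk and Nfatc1 and between Nfatc1 and the gene below it, so the change of rank of Tnfrsf11b lies within the intervals. Of the 10 genes, 7 had a mean FPKM under 10, where the intervals reached 23.5% to 35.0% of the value in running mice and 25.3% to 49.1% in sedentary mice. The smallest absolute log2 fold called in the whole table was 0.46 among genes with a mean FPKM from 1 to under 10, 0.39 from 10 to under 100 and 0.38 from 100 to under 1000. The folds of all 10 genes were smaller in size than the value for their level, that of Tnfrsf11b by the least. These values describe called genes only and are not a limit of detection. Of the 450 genes from 1 to under 10 FPKM with a fold at least that of Tnfrsf11b, 29 were called.

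**Figure D2:**
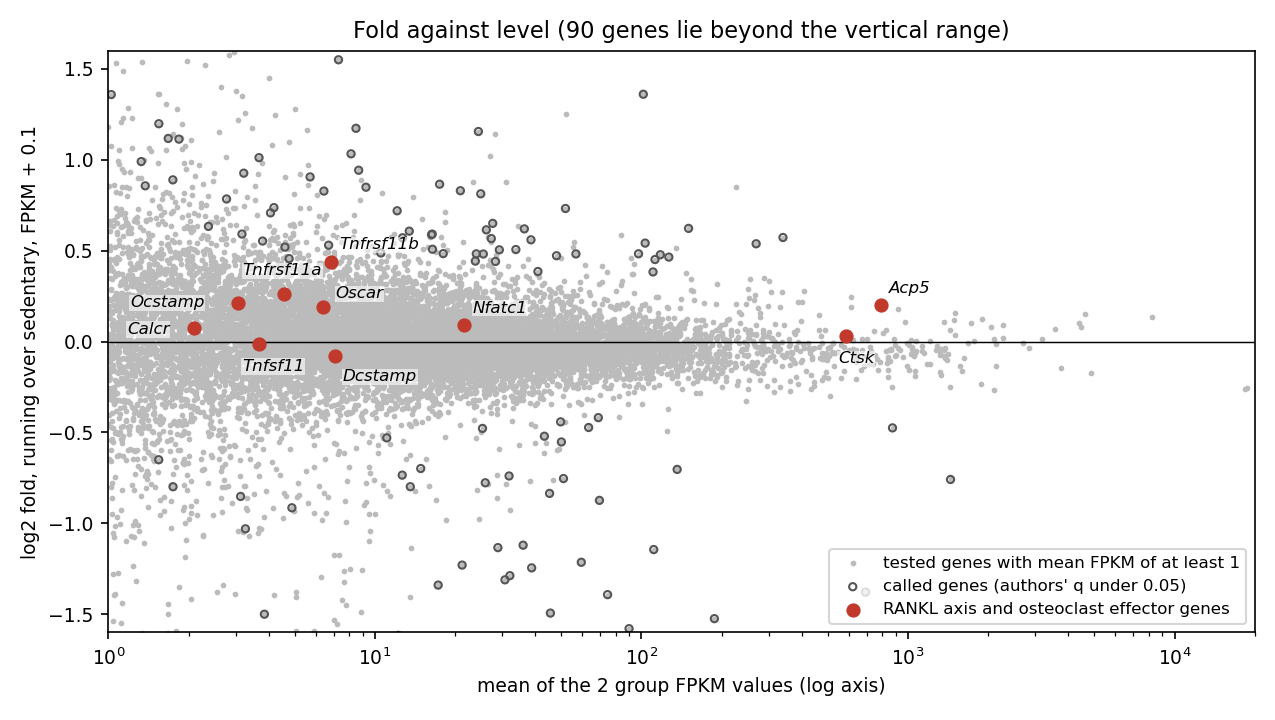
Log2 fold of wheel running over sedentary against the mean of the 2 group FPKM values (log axis) for 14210 tested genes with a mean FPKM of at least 1, of which 90 lie beyond the vertical range. Red points are the 10 RANKL axis and osteoclast effector genes and open circles the called genes; Tnfrsf11b, at 0.44, lies nearest to the called genes, and the other 9 lie between -0.08 and 0.26.

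Beyond these 10 genes, 123 genes of the pathway in 10 lists were examined, and 120 of them had been tested by the authors. Of the 120, 1 was called higher (Cthrc1) and 1 lower (Il1b), or 1.67% against 0.941% of all tested genes. The median log2 fold of the 120 was 0.0042, and 50.8% were positive. At an unadjusted p under 0.05 there were 10 of 120 (8.33%), 6 higher and 4 lower, against 5.65% of all tested genes. They were Cthrc1, Wnt10b, Slit3, Wnt4, Vdr and Csf1 on the higher side and Il1b, Sirpb1a, Trem2 and Lcp2 on the lower side; of these, Vdr, Trem2, Wnt10b and Slit3 are named because of this p. Of these 10 genes, 2 (Il1b and Cthrc1) had an absolute test statistic of at least 1.96. None of the 120 had intervals apart, Cthrc1 and Il1b included.

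**Figure D3:**
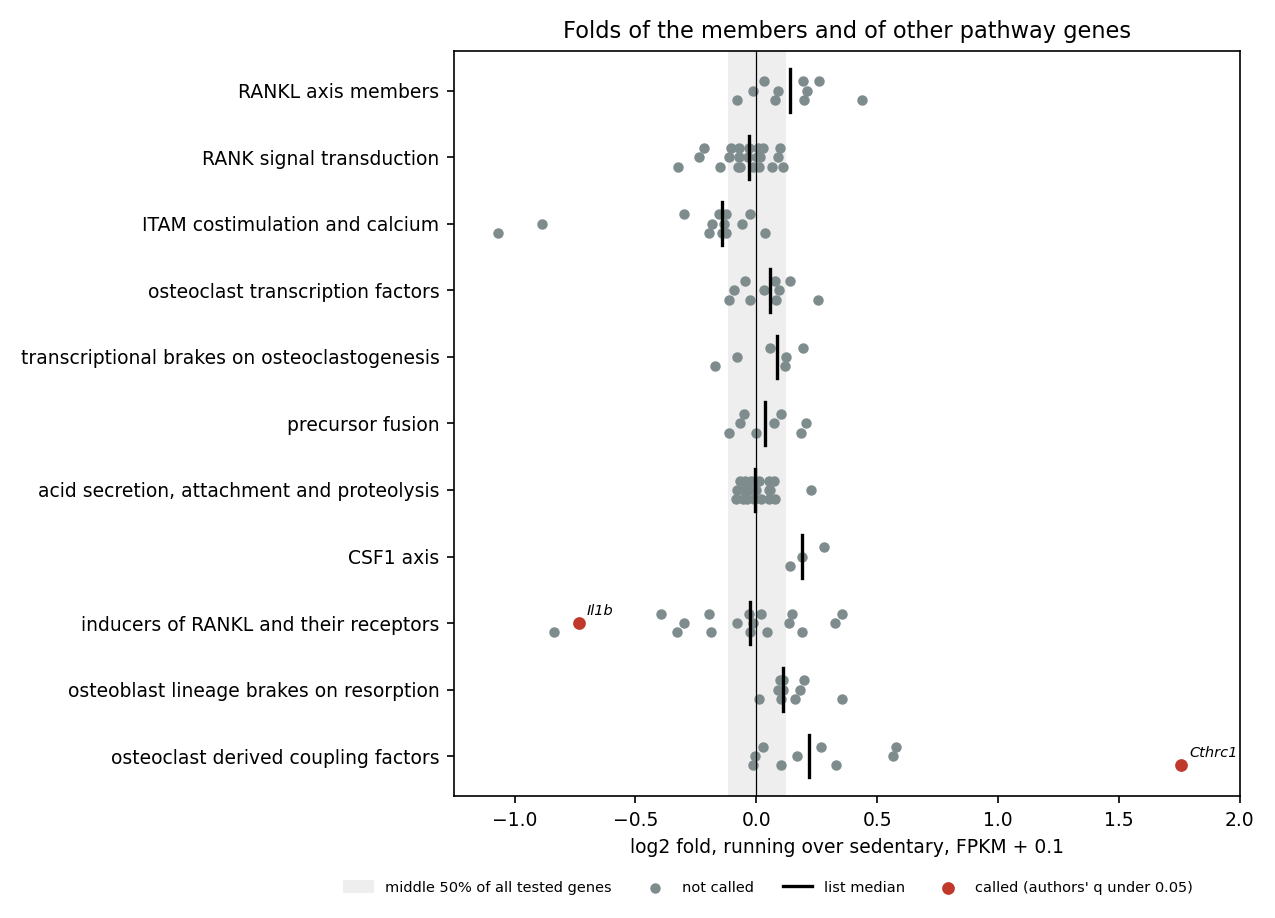
Log2 folds of wheel running over sedentary for the 10 RANKL axis genes and for the tested members of 10 other pathway lists, 1 point per gene, with called genes in red, a black bar at each list's median and the middle 50% of all tested genes (-0.11 to 0.12) shaded. Il1b at -0.73 and Cthrc1 at 1.76 are the called genes, and the ITAM list lies to the left of 0 for 12 of its 13 genes.

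Among inducers of RANKL and their receptors, Il1b was lower in running mice. Il1b (ENSMUSG00000027398; chromosome 2, 129364570 to 129371139, minus strand) encodes interleukin-1 beta, a cytokine that raises RANKL in osteoblast-lineage cells and acts on osteoclasts directly. It fell to 9.48 FPKM (6.58 to 12.4) in running mice, against 15.8 FPKM (11.1 to 20.6) in sedentary mice, a log2 fold of -0.73 with a p of 5e-05, a q of 0.00718 and a test statistic of -2.40 in the authors' deposited table. That q is the smallest the table holds and is shared by 108 genes. Monocytes and neutrophils are the main makers of Il1b, and their markers were mostly lower in running mice. All 9 neutrophil markers had a negative fold (median -0.17, none called; summed level 43384 FPKM in running mice and 51172 FPKM in sedentary mice). Of 9 monocyte and macrophage markers 7 had a negative fold (median -0.12, 1 called lower; 2749 FPKM in running mice and 3215 FPKM in sedentary mice). The part of these markers in the Il1b value was not tested.

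The other 17 tested inducers and receptors were not called, and the list median was -0.03. Lif, a gp130 cytokine, had 0.937 FPKM in running mice and 1.26 FPKM in sedentary mice. The most abundant members were Lifr, its receptor, at 65.7 FPKM in running mice and 59.9 FPKM in sedentary mice, and Tnfrsf1a, a receptor of TNF, at 58.5 FPKM in running mice and 56.8 FPKM in sedentary mice. Vdr, the vitamin D receptor through which calcitriol induces RANKL, had 18.2 FPKM in running mice and 14.5 FPKM in sedentary mice, with an unadjusted p of 0.0191 and a q of 0.605 in the authors' deposited table.

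Of the factors that osteoclasts release and that act on bone formation, Cthrc1 was higher in running mice. Cthrc1 (ENSMUSG00000054196; chromosome 15, 39076932 to 39087121, plus strand) encodes a secreted collagen triple helix repeat protein that is made by osteoclasts and also by osteoblasts and fibroblasts. It rose to 3.50 FPKM (1.47 to 5.54) in running mice, against 0.966 FPKM (0.143 to 1.79) in sedentary mice, a log2 fold of 1.76 with a p of 5e-05, a q of 0.00718 and a test statistic of 2.50 in the authors' deposited table. Both statistics are past 1.96 but smaller in size than such a p gives on a normal scale. The other 9 of this list were not called, and the list median was 0.22 with 8 of 10 positive. Bmp6 had 9.96 FPKM in running mice and 6.65 FPKM in sedentary mice, with intervals from 4.22 to 15.7 and from 2.05 to 11.3. Wnt10b had 2.82 FPKM in running mice and 1.87 FPKM in sedentary mice, and Slit3 had 16.3 FPKM in running mice and 13.5 FPKM in sedentary mice. The most abundant members, Tgfb1 and Sema4d, were level, with log2 folds of -0.01 and -0.0049. Several of these factors are also made by bone-forming and stromal cells, whose markers, given with Tnfrsf11b, had median folds of 0.18 (osteoblast, none called), 0.26 (osteocyte) and 0.49 (stroma, 4 called higher); their part in the folds of Cthrc1 and of this list was not tested.

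The brakes that osteoblast-lineage cells put on resorption had positive folds in all 10 of 10 genes, with a median of 0.11 and none called. Wnt4, which dampens NF-kB in osteoclast precursors, had 4.45 FPKM in running mice and 3.45 FPKM in sedentary mice, with an unadjusted p of 0.0119 and a q of 0.458 in the authors' deposited table. Ephb4, the receptor of ephrin B2, had 7.55 FPKM in running mice and 6.57 FPKM in sedentary mice. Ctnnb1, which encodes beta-catenin, an inducer of osteoprotegerin, had 242 FPKM in running mice and 225 FPKM in sedentary mice. Lrp5, a Wnt co-receptor, had 15.7 FPKM in running mice and 13.8 FPKM in sedentary mice. The osteoblast, osteocyte and stromal marker sums given above were higher in the same libraries, and their part in these folds was not tested.

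The CSF1 axis, which keeps precursors alive, had 3 genes, all with a positive fold and none called. Csf1, the ligand, had 30.1 FPKM (23.5 to 36.7) in running mice and 24.8 FPKM (19.1 to 30.5) in sedentary mice, with an unadjusted p of 0.0340 and a q of 0.773 in the authors' deposited table. Il34, the second ligand, had 14.6 FPKM in running mice and 12.8 FPKM in sedentary mice. The receptor Csf1r had 94.8 FPKM in running mice and 86.0 FPKM in sedentary mice, with wide intervals of 47.4 to 142 in running mice and 50.2 to 122 in sedentary mice. Stromal and osteoblast-lineage cells make Csf1, and their markers had positive folds in 8 of 8 and 9 of 9 genes. Monocytes and macrophages carry Csf1r, and 7 of 9 of their markers had a negative fold. Csf1r is itself among those 9 markers, on the positive side. The part of these markers in the 3 folds was not tested.

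Costimulation acts beside RANK in the precursor. Of 13 tested genes of ITAM costimulation and calcium signalling, through which Oscar signals, 12 had a negative fold, with a median of -0.14 and none called. The adaptors Tyrobp, at 452 FPKM in running mice and 518 FPKM in sedentary mice, and Fcer1g, the partner of Oscar, at 246 FPKM in running mice and 271 FPKM in sedentary mice, were the most abundant. Sirpb1a had 2.01 FPKM in running mice and 3.81 FPKM in sedentary mice, with an unadjusted p of 0.0039 and a q of 0.231 in the authors' deposited table; it has close paralogs with which it could trade fragments. Lcp2, an adaptor of Syk signalling, had 29.3 FPKM in running mice and 36.1 FPKM in sedentary mice, and Trem2 had 0.385 FPKM in running mice and 0.917 FPKM in sedentary mice. Siglec15 was listed at 0 in both groups, with interval bounds of 0, and was not tested by the authors. A gene that is not expressed and one that was not counted cannot be told apart from this. Neutrophils and monocytes also express most of these adaptors, and the lower sums of their markers given with Il1b moved in the same direction; their part in this list was not tested.

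RANK signal transduction was level, with none of 22 genes called, 9 positive folds and a median of -0.03. Map3k14, the kinase of the alternative NF-kB pathway, had 3.92 FPKM in running mice and 4.93 FPKM in sedentary mice, and Traf3, which restrains that kinase, had 9.53 FPKM in running mice and 11.3 FPKM in sedentary mice. Nfkbia, the inhibitor of NF-kB, had 71.5 FPKM in running mice and 66.1 FPKM in sedentary mice. The kinase gene Mapk14 had 67.7 FPKM in running mice and 71.1 FPKM in sedentary mice.

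None of 10 osteoclast transcription factors was called, with a median of 0.06. Jun, a part of AP-1, had 9.82 FPKM in running mice and 8.21 FPKM in sedentary mice, and Mitf had 2.57 FPKM in running mice and 2.32 FPKM in sedentary mice. Spi1, which encodes PU.1, had 89.2 FPKM in running mice and 95.2 FPKM in sedentary mice, and Jdp2 had 40.7 FPKM in running mice and 38.1 FPKM in sedentary mice. None of 6 transcriptional brakes was called either, with a median of 0.09. Irf8, which holds back Nfatc1, had 52.1 FPKM in running mice and 58.5 FPKM in sedentary mice, with intervals that reached down to 0 in both groups, so its level is poorly known. Nr4a1 had 11.0 FPKM in running mice and 9.58 FPKM in sedentary mice.

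The machinery of fusion and resorption showed no call in either list. Of 8 other fusion genes 4 had a positive fold, with a median of 0.04. Atp6v0d2, a proton pump subunit needed for fusion, had 33.8 FPKM in running mice and 29.8 FPKM in sedentary mice, and Sh3pxd2a, a podosome scaffold, had 22.2 FPKM in running mice and 19.3 FPKM in sedentary mice. The surface proteins Cd9, at 175 FPKM in running mice and 181 FPKM in sedentary mice, and Cd47, at 165 FPKM in both groups, were the most abundant. Of 20 genes of acid secretion, attachment and proteolysis 9 had a positive fold, with a median of -0.0050 and a range of only -0.08 to 0.22. Car2, the carbonic anhydrase that supplies protons, had 888 FPKM in running mice and 880 FPKM in sedentary mice, and Mmp9, a matrix metalloprotease, had 427 FPKM in running mice and 439 FPKM in sedentary mice. Red cells also express Car2 and neutrophils Mmp9. The widest folds of the list belonged to the proton pump subunits Atp6v1c1, at 13.9 FPKM in running mice and 11.9 FPKM in sedentary mice, and Atp6v1e1, at 109 FPKM in running mice and 116 FPKM in sedentary mice. The running interval of Atp6v1c1 reached down to 0.

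**Figure D4:**
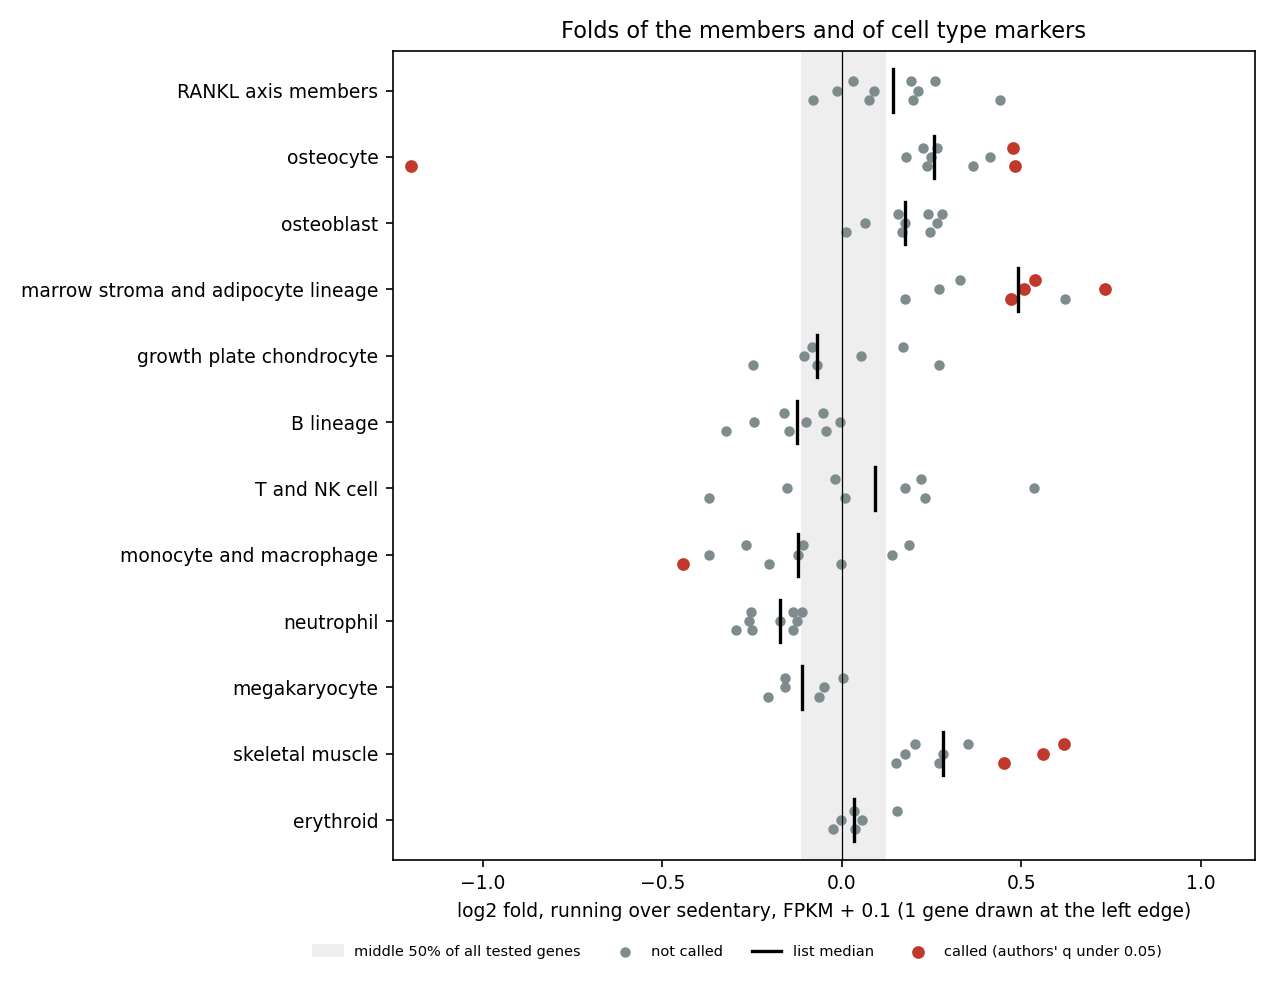
Log2 folds of wheel running over sedentary for the 10 RANKL axis genes and for the tested members of 11 cell type marker lists, drawn as in the plot of pathway folds; Fgf23 is drawn at the left edge, and its log2 fold is -3.16. The osteocyte, osteoblast, stromal and muscle lists lie mostly to the right of 0, and the neutrophil, B lineage and monocyte lists mostly to the left.

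Of the other cell types that carry RANKL or lie near it, growth plate chondrocyte markers had a median log2 fold of -0.07, B lineage markers of -0.12, T and NK cell markers of 0.09, megakaryocyte markers of -0.11 and erythroid markers of 0.04, with none called in any of these 5 lists. B lineage markers were negative in 8 of 8 genes, with a summed level of 317 FPKM in running mice and 348 FPKM in sedentary mice.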

How the data were processed

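Femoral bone RNA from 6 mice, 3 with and 3 without a running wheel, was extracted with TRIzol, and directional libraries were prepared with an NEBNext kit (from the labels' protocols). Tools named in the submitters' processing notes, with no role stated, are Trimmomatic 0.39, HISAT2 2.2.1, SAMtools 1.10 and Cufflinks 2.2.1, with build GRCm38. The layout is that of Cuffdiff. The authors deposited a single FPKM per group with interval bounds of unstated level. Per the file headers, the deposited table adds a log2 fold change, a test statistic (score), a p-value and a q-value. The authors tested 15508 of 55484 genes. Library totals were not used here, so depth is seen only through the intervals.

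With 0 columns of single libraries, a call is a deposited q under 0.05, which matched a Benjamini-Hochberg adjustment of the deposited p within 5.21e-07. Log2 folds came from the group FPKM values with a pseudocount of 0.1 (Python 3.11.15, pandas 2.3.3); on this scale low genes show less than their true change. The design text treats replicates as separate mice. The 10 genes, the 10 pathway lists and the 11 marker lists (222 symbols, all matched) were chosen with earlier results of these data known. Named in each pathway list were called genes, the 2 highest levels and the 2 largest folds with FPKM of at least 1; 1 gene that this names is not reported here. Vdr, Trem2, Wnt10b, Slit3, Siglec15, Pdpn, Sost, Mepe and Fgf23 were named after their values were seen. Positions were taken from GENCODE vM21 (GRCm38) by Ensembl ID. Adjustment and fold code was tested on simulated data.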

Additional observations from a re-analysis of the deposited data

How the results depend on the processing

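No paired analysis was possible because every value used here is pooled over a group. Single mice could therefore not be left out in turn, nor could 1 mouse behind a value be seen. None of the 10 RANKL axis genes was called with q under 0.01, with q under 0.1, with q recomputed over 14488 genes with FPKM of at least 1, or with intervals apart. An unadjusted p under 0.05 gave 1, Tnfrsf11b, and 0 when the absolute test statistic also had to reach 1.96, an alternative chosen after seeing the data. Of the 120 pathway genes 2 were called, 10 had an unadjusted p under 0.05 (2, Il1b and Cthrc1, with the statistic at 1.96 or more as well) and 0 were called with intervals apart. Of all tested genes 146 were called, 876 had an unadjusted p under 0.05 (168 with the statistic as well) and 69 were called with intervals apart. These settings reuse the authors' test.

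The 3 scalings correspond to log2 shifts of 0.0077 to 0.04 before the pseudocount, which makes the shift of low genes smaller. Of 50 alternative folds of the 10 genes, 48 kept their sign and moved by at most 0.1. Tnfsf11 turned to 0.0286 with equal totals and 0.0171 with equal upper quartiles. Of 66 alternative list medians, 59 kept their sign and moved by at most 0.1. With equal totals, equal upper quartiles and, where it turned, an equal median ratio, the median became 0.0118 and 9.22e-05 for RANK signal transduction, 0.0376, 0.0259 and 0.00267 for acid secretion, attachment and proteolysis, and 0.0145 and 0.00288 for RANKL inducers.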
